A study of Mus musculus with 5 samples.

Results

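ESC-like cells grown out of a teratoma in a B6D2F1 recipient (heterologous injection) were compared with ESC-like cells grown out of a teratoma in a B6CBAF1 recipient (homologous injection), both after injection of B6CBAF1 embryonic stem cells (ESCs) alone. These are 2 of the 5 arrays of the series, and each stands for 1 cell population. The difference was taken for every gene as the log2 value of the heterologous array minus that of the homologous array, over the 19938 genes that had a probe set with exactly 1 gene symbol. A gene with several probe sets was represented by the brightest one over all 5 arrays. A log2 difference of 1 is a fold change of 2, and 610 of the 19938 genes (3.06%) were more than 2-fold apart.

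The injected line came from an F1 embryo of a C57BL/6 mother and a CBA/ca father, so the B6CBAF1 recipient shared its genotype, whereas the B6D2F1 recipient, an F1 of C57BL/6 and DBA2, carried a DBA2 genome in place of the CBA/ca one. The other arrays hold the parental ESCs before injection and 2 batches of ESC-like cells from B6D2F1 recipients that received the ESCs together with B6D2F1 fetal fibroblasts (co-injection). ESCs were injected subcutaneously, and the teratomas were dissociated. Both the parental ESCs and the outgrown ESC-like cells were kept on inactivated fetal fibroblasts of the ICR strain with leukemia inhibitory factor (LIF). The paper gives a higher LIF concentration for the cells from teratomas than for the parental ESCs, so values set against parental ESCs carry this difference too. RNA of each population was hybridized to a mouse gene expression array (Affymetrix Mouse Gene 1.0 ST), and the authors deposited log2 values after RMA and quantile normalization. The heterologous line came from a single teratoma, and nothing in the labels names a repeat culture of either line. There is thus no replicate of either side, no p-value is given, and the co-injection pair, which the labels call batch 1 and batch 2, is the only view of how far 2 arrays of one condition lie apart. Recipient, teratoma and derived line cannot be told apart.

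ESCs are held in the pluripotent state by a core of transcription factors around Pou5f1, Nanog and Sox2, and they grow as tightly joined, epithelium-like colonies. When such cells pass through an epithelial-mesenchymal transition, the factors of the Snai, Zeb and Twist families repress junction genes, and the cells turn on genes for contractile fibres and for extracellular matrix. Fibroblasts, which are a mesenchymal cell type and also form the feeder layer, express many of the same matrix genes. On bulk RNA, a larger number of cells of a type and more RNA per cell cannot be told apart.

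Most genes lay close together in the heterologous and homologous arrays. Their median difference was −0.0091, and 91.3% of the genes were within 1.5-fold. Of the 610 genes beyond 2-fold, 481 (2.41% of all genes) were higher and 129 (0.647%) lower in the heterologous array. The higher side also reached further, with 58 genes over 4-fold against 5 on the lower side, and 3 genes over 8-fold. Between the co-injection arrays 1 gene of 19938 (0.00502%) was more than 2-fold apart, the miRNA gene Mir380. The median absolute difference was 0.122 between the heterologous and homologous arrays and 0.0671 between the co-injection arrays, and the 99th percentile was 1.55 against 0.357. Over the 610 genes themselves the co-injection arrays had a median absolute difference of 0.115. Counted in the same way, the mean of the co-injection arrays had 15 genes (0.0752%) higher and 70 (0.351%) lower than the homologous array. Against parental ESCs, 290 genes (1.45%) were higher and 319 (1.6%) lower in the homologous array, and 794 (3.98%) were higher and 389 (1.95%) lower in the heterologous array. These comparisons share arrays with each other. The parental array stood apart from the other 4 in sex-linked genes. Eif2s3y, a Y-linked gene, was at 5.34 in parental ESCs, 7.88 in the homologous and 8.54 in the heterologous array, and 7.86 and 7.82 with co-injection, and Uty was at 5.30 against 8.75, 7.78, 8.27 and 8.19. Over 5 segments of the X chromosome the median of each of the other 4 arrays against parental ESCs lay between −0.58 and −0.28. The paper reports that microsatellite typing matched the ESC-like cells with the parental ESCs. Whether the parental array itself holds the same line as the injected cells was not tested here. Every value set against parental ESCs carries this limit, whereas the difference between heterologous and homologous arrays does not use the parental array.

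The heterologous array held the highest value of all 5 arrays for 466 of the 481 higher genes, and for 374 of them it was also more than 2-fold above each of the 3 arrays that did not enter the difference. Among the 129 lower genes, the heterologous array was the lowest of 5 for 120, but more than 2-fold below each of the other 3 for only 33 (25.6% against 77.8% on the higher side). The homologous array was the highest of 5 for 82 of these 129 genes. Over all genes, the heterologous array was the highest of 5 for 19.2% and the lowest for 36.6%. The homologous array was the highest for 13.5% of all genes. The heterologous array was more than 2-fold above each of the other 3 for 2.29% of all genes and below for 0.186%. Both gene sets were chosen by the difference between the heterologous and homologous arrays, so part of these extreme ranks follows from that choice. The median level of the 481 higher genes was 8.05 in the homologous and 9.57 in the heterologous array, with 7.79 in parental ESCs and 7.55 and 7.59 with co-injection. The median level of the 129 lower genes was 9.47 in the homologous and 8.14 in the heterologous array, with 9.09 in parental ESCs and 9.10 and 9.20 with co-injection. The share of higher genes depended on brightness: with the genes in 10 classes of equal size, it was 0.702% in the dimmest class, 4.21% in the sixth and 0.652% in the brightest.

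**Figure D1:**
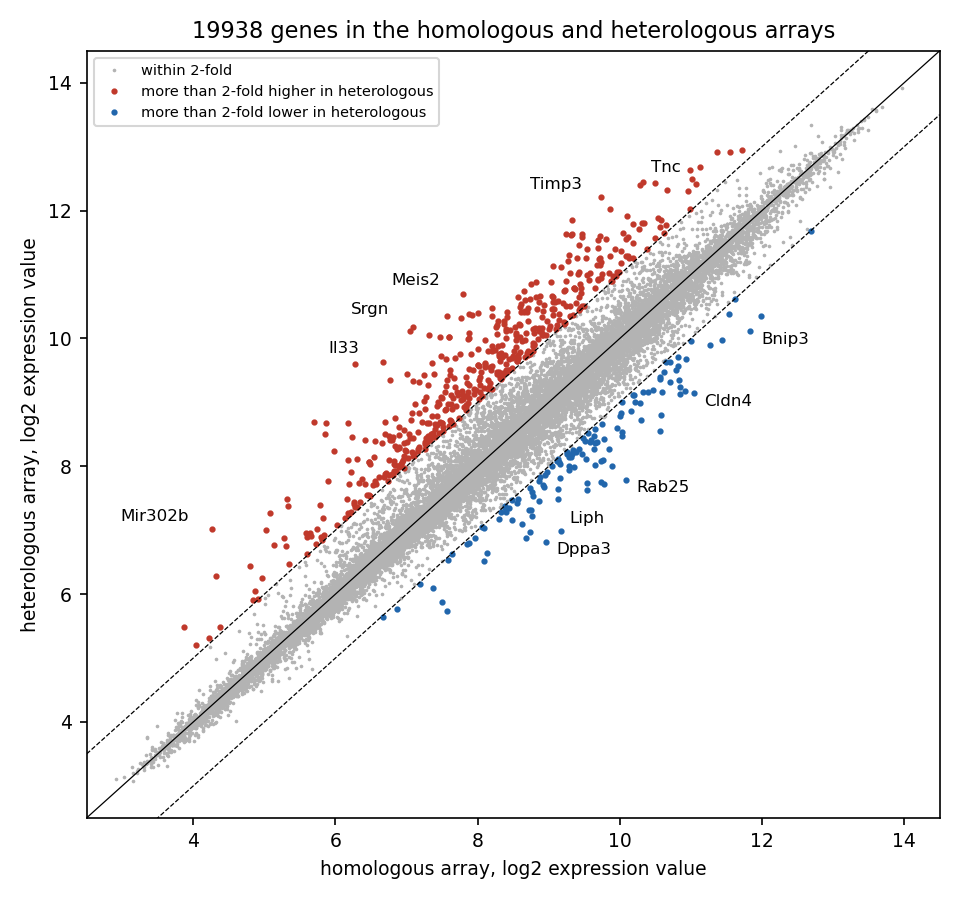
Log2 value of each of 19938 genes in the homologous array (horizontal axis) and the heterologous array (vertical axis), 1 point per gene. The solid line marks equal values and the dashed lines 2-fold; 481 genes lie above the upper dashed line (red) and 129 below the lower one (blue).

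The largest positive differences were those of Dynap (3.32) and Srgn (3.09), the latter the gene of the granule proteoglycan serglycin. Dynap was at 6.27 in the homologous and 9.60 in the heterologous array, and at 6.37, 6.16 and 6.29 in parental ESCs and the co-injection arrays, so the heterologous array stood alone. Srgn was at 7.09 in the homologous and 10.18 in the heterologous array, and at 8.74, 9.08 and 9.23 in the other 3, so here the homologous array was also below all others. Itgb8, an integrin subunit that binds latent TGF-beta, followed with 3.07, then the predicted gene Gm5662 (2.996), the alarmin Il33 (2.97) and Meis2 (2.91), a homeobox factor that acts with Hox proteins. Further down came Edil3 (2.81), Olr1 (2.65), a receptor of oxidized lipoprotein, Antxr2 (2.59), Ptgs2 (2.52), which makes prostaglandins, and Mcpt8 (2.497), a protease gene of basophils. On the lower side Rab25, a GTPase of epithelial membrane recycling, had the largest difference (−2.30), followed by the lipase gene Liph (−2.18), Dppa3 (−2.15), the RNA-binding protein gene Rbm47 (−2.07) and Tdrd12 (−2.02), a gene of the piRNA pathway. Nearest to the threshold, Pomt2, Slirp, Rfx4, Uprt and Akr1b8 (all at 1.00 or 1.01) were just inside on the higher side and Col6a3, Itm2b, Cd302, Ldlrad4 and Zfp410 (all at 1.00) just outside. On the lower side Cep70, Fam183b, Armh4, Tiam1 and Mt1 (all at −1.01) were just inside and Akap7 (−0.99) was just outside, with Slc37a1, Pdk1, Hmgn5 and Triml1 between it and the threshold.

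The core pluripotency genes, which the name ESC-like implies, were at similar levels in both lines. Of 16 core genes none was more than 2-fold apart, and their median difference was −0.10. Pou5f1, the gene of Oct4, was at 12.29 in the homologous and 12.32 in the heterologous array, with 12.60, 12.40 and 12.36 in parental ESCs and the co-injection arrays. Nanog was at 12.34 and 12.22, and the co-receptor gene Tdgf1 at 12.67 and 12.64. These 3 genes differed between the lines by no more than 0.12. The largest differences of the list were negative, with Zfp42 (Rex-1) at 9.38 in the homologous and 8.53 in the heterologous array (−0.85) and Sox2 at 12.10 and 11.45 (−0.65). Parental ESCs had 10.16 for Zfp42 and 12.04 for Sox2.

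Genes of mesenchymal cells stood higher in the heterologous line as a group. All gene lists were chosen with earlier results of these data known, and some share members. Their shares beside those over all genes are therefore descriptions and not tests. All 13 genes of mesenchymal transition factors and their cadherins were above 0, 8 of 13 were more than 2-fold higher and none lower, and the median difference was 1.32, beside 2.41% of genes higher and a median of −0.0091 over all genes. Cdh11, a mesenchymal cadherin, was at 9.47 in the homologous and 11.59 in the heterologous array (2.12), with 9.22 in parental ESCs and 7.34 and 7.31 with co-injection. Prrx1, a limb and fibroblast homeobox factor, was at 8.83 and 10.65 (1.83), with 7.86, 6.95 and 6.64 in the other arrays. Snai2 was at 9.19 and 10.56 (1.37), with 7.88, 7.22 and 7.01. In these 3 genes the heterologous array was highest, the homologous next and the co-injection arrays lowest. Foxc2 (1.76), Zeb2 (1.57), Cdh2 (1.43), the gene of N-cadherin, Twist2 (1.32) and Zeb1 (1.29) were the other members beyond 2-fold. Twist1 (0.49), Tcf4 (0.55) and Foxc1 (0.27) had the smallest differences.

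In the list of 30 fibroblast genes all differences were above 0, and the median difference was 1.16. Of these genes 17 exceeded 2-fold (56.7%, beside 2.41% over all genes), among them Prrx1 and Twist2 of the list above. Dcn, the gene of the collagen-binding proteoglycan decorin, led the list with 7.31 in the homologous and 10.06 in the heterologous array (2.75, or 6.72-fold), against 7.39 in parental ESCs and 6.71 and 6.44 with co-injection. Postn (periostin) was at 7.76 and 10.31 (2.55), against 7.02, 6.16 and 6.16. Thbs2 (thrombospondin 2) was at 7.88 and 10.38 (2.503), against 7.09, 7.17 and 7.18. The heterologous array was the only one above 8 for each of these 3 genes. Lox, which crosslinks collagen, followed with 2.30, Col1a1 with 1.94, the PDGF receptor gene Pdgfrb with 1.79, the collagen receptor gene Ddr2 with 1.71 and Thy1 with 1.22. The smallest differences were those of Fn1 (fibronectin), at 13.11 and 13.27, Lum, the gene of lumican, at 4.64 and 4.81, and Tcf21 (0.04). The mean of the 30 genes was 8.22 in parental ESCs, 8.63 in the homologous, 9.82 in the heterologous, and 7.96 and 7.95 in the co-injection arrays. The co-injection mean lay below the homologous array by a list median of −0.40, in a comparison that shares the homologous array. The single co-injection arrays had medians of −0.41 and −0.38 against it (SD 0.017, n = 2). Which cells the fibroblast RNA came from, feeder, host or ESC-derived, was not tested.

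The matrix genes were spread over several classes. Of 58 glycoproteins and proteoglycans, some of them also in the fibroblast list, 23 were more than 2-fold higher and none lower (median 0.58). This share of 39.7% stands beside 2.41% over all genes. Edil3, an integrin ligand, was at 5.87 in the homologous and 8.68 in the heterologous array, and Tnc, the gene of tenascin C, at 10.32 and 12.44 (2.12). Tnc was at 10.02 in parental ESCs and at 7.17 and 7.27 in the co-injection arrays, so that the heterologous line lay highest, the homologous line and parental ESCs close together, and the co-injection lines far below. Srpx2 (2.54), Aspn (2.26), Ccdc80 (2.24) and Ogn (2.17) belonged to the same class, as did the latent TGF-beta binding proteins Ltbp2 (1.40), Ltbp1 (1.26) and Ltbp3 (1.19). Nid2 (−0.76), Acan (−0.21) and Smoc1 (−0.34) were its lowest members. Of 40 collagen genes 4 were more than 2-fold higher (10%, beside 2.41% over all genes), namely Col12a1 (2.45), Col8a1 (1.95), Col1a1 (1.94) and Col1a2 (1.54). The collagen median was 0.06.

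Among 38 matrix proteases and their inhibitors, 13 were more than 2-fold higher (34.2%, beside 2.41% over all genes) and none lower. The median was 0.67, and both kinds were represented. Timp3, an inhibitor of metalloproteinases, was at 9.73 in the homologous and 12.21 in the heterologous array (2.47), against 9.37, 8.76 and 8.68 in parental ESCs and the co-injection arrays. Timp2 (1.75) and Timp1 (1.35) were also beyond 2-fold. On the protease side stood Plau (1.93) and Plat (1.49), the plasminogen activators, Mmp14 (1.17), Mmp19 (1.06) and Mmp3 (1.06), and Bmp1 (1.72) with its relative Tll1 (1.59), which cleave procollagen. Of 20 integrin genes, which encode matrix receptors, Itgb8 and Itga11 (1.67), a collagen-binding subunit, passed 2-fold (10%, beside 2.41% over all genes). The integrin list had a median of 0.55.

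Contractile genes were higher as well. Of 23 genes of the contractile cytoskeleton, 8 were more than 2-fold higher (34.8%, beside 2.41% over all genes). None was lower, and the median was 0.54. Tagln, the gene of transgelin, was at 9.40 in the homologous and 11.26 in the heterologous array (1.86), against 9.03 in parental ESCs and 9.35 and 9.09 with co-injection. Acta2, smooth muscle actin, was at 11.55 and 12.92 (1.36), against 10.996, 9.53 and 9.51. Myl9, a regulatory myosin light chain, was at 9.72 and 11.26 (1.55), against 9.14, 9.44 and 9.16. In each of these 3 genes the heterologous array was the highest of the 5. Cald1 (1.72), Actg2 (1.37), Cnn1 (1.09), Tpm2 (1.09) and Tpm1 (1.03) completed the set. The lowest members of the list, Des, Lmod1 and Mylk, lay between −0.06 and −0.04. None of 15 skeletal muscle genes passed 2-fold.

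Of 19 genes of the YAP and TEAD pathway, which responds to cell spreading and tension, 7 were more than 2-fold higher (36.8%, beside 2.41% over all genes). None was lower, and the median was 0.53. The list holds targets of these factors and also parts of the pathway itself, such as Yap1, Wwtr1, Tead3, Tead4 and Wwc1. Axl, a receptor tyrosine kinase, was at 9.71 in the homologous and 11.60 in the heterologous array (1.89), against 9.71 in parental ESCs and 8.60 and 8.43 with co-injection. Ccn2 (1.56) and Ccn1 (1.61), matricellular proteins often used as readouts of YAP, and Ankrd1 (1.72) were also higher. The kinase gene Lats2 (1.35), which restrains YAP and is itself a target, was among them, whereas Dlc1 (−0.85), Tead4 (−0.61) and Wwc1 (−0.54) lay below 0.

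Since the calls beyond 2-fold in these 2 lists were all on the higher side, the RefSeq promoter table (GRCm38.p6, 250 bases before to 50 after each start) was searched on both strands for GGAATG, the motif bound by TEAD factors, and for the CArG box, bound by serum response factor. The letters of the motifs can overlap only at their GG or CC ends. GGAATG was in 11 of the 15 promoters found for the YAP and TEAD list (73.3%), in 9 of 20 for the contractile list (45%) and in 14.7% of all 32851 promoters of the table. Of the promoters of genes more than 2-fold higher 20.2% (68 of 336) held it, and of those more than 2-fold lower 23.4% (22 of 94), so it did not set the higher genes apart from the lower ones. The CArG box was in 4 of 20 contractile promoters (20%), in none of the 15 of the YAP and TEAD list and in 1.63% of all promoters. The 4 contractile genes were Cnn2, Myl9, Vcl and Filip1l, and of these only Myl9 was beyond 2-fold. The 20% thus describes the list and not its higher genes. Of higher genes 3.27% had it, and of lower genes 3.19%. A match describes the sequence and not binding. The YAP and TEAD list was chosen for its link to these factors, so its share of GGAATG is no result of these arrays. Its 11 promoters with the motif include those of Yap1, Wwtr1 and Tead3, which were not beyond 2-fold. The promoters of Ankrd1 and Myl9 are shown because both genes were beyond 2-fold and each carries a motif of its list. The capitals mark GGAATG in Ankrd1 (chr19:36119795-36120094, minus strand) and the CArG box in Myl9 (chr2:156775214-156775513, plus strand).
Ankrd1: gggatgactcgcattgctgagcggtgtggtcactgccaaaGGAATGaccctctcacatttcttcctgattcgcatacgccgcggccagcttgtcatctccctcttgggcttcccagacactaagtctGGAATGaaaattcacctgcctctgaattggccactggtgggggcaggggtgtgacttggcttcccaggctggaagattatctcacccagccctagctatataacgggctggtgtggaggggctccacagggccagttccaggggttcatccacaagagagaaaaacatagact
Myl9: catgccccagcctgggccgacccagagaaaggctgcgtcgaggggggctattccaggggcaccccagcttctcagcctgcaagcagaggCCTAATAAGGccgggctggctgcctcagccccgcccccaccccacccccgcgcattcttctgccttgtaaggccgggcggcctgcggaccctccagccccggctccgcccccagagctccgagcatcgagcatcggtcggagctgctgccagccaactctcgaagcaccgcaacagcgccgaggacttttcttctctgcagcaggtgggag
The matches in Ankrd1 begin 210 and 123 bases before the start, and the match in Myl9 begins 161 bases before it.

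Epithelial genes lay on the other side. Of 27 epithelial genes, 10 were more than 2-fold lower in the heterologous line and none higher, beside 0.647% lower over all genes, and the median difference was −0.69. Rab25 was at 10.09 in the homologous and 7.79 in the heterologous array, against 9.30 in parental ESCs and 9.55 and 9.42 with co-injection. Cldn4, a claudin of tight junctions, was at 11.04 and 9.14 (−1.90), against 10.15, 10.85 and 10.87. Esrp1, which directs epithelial splicing, was at 10.92 and 9.17 (−1.75), against 9.59, 10.58 and 10.59. The heterologous array was the lowest of the 5 in all 3 genes. The claudins Cldn6 (−1.63) and Cldn7 (−1.37), the junction protein gene Tjp3 (−1.29), the membrane proteases Prss8 (−1.89) and St14 (−1.19), Esrp2 (−1.18) and the transcription factor gene Grhl2 (−1.02) made up the rest. Outside the list, the epithelial factors Grhl3 (−1.77) and Elf3 (−1.65) and the adaptor subunit Ap1m2 (−1.92), which sorts proteins to the basolateral membrane, were among the 20 largest negative differences. Keratins did not share this direction, with Krt18 at 9.02 and 9.38 and Krt8 at 10.00 and 10.25, while the co-injection arrays had 10.82 and 10.38 for Krt18 and 11.86 and 11.47 for Krt8. The epithelial median of the co-injection mean against the homologous array was 0.01. The single co-injection arrays had medians of 0.07 and 0 (SD 0.047, n = 2), and both share the homologous array.

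**Figure D2:**
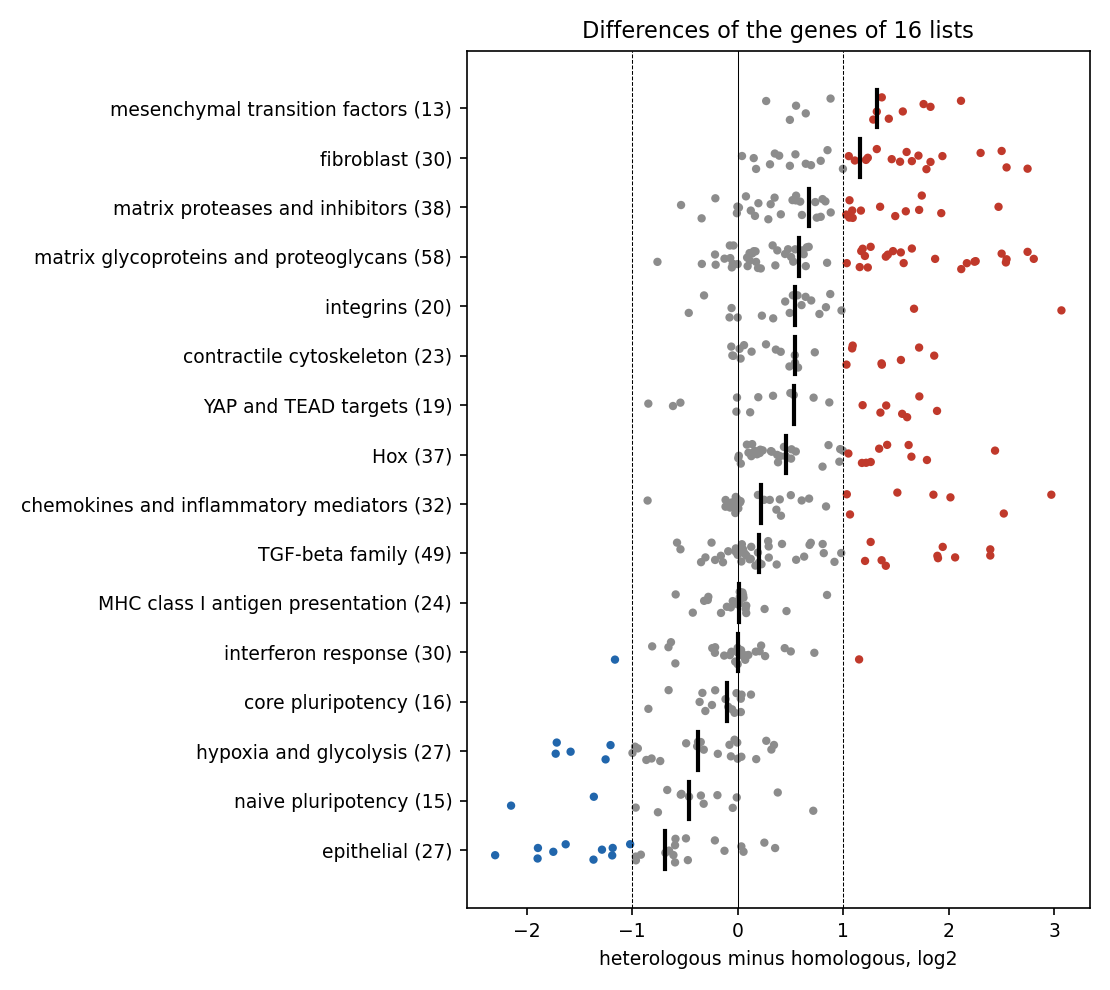
Heterologous minus homologous difference (log2, horizontal axis) of each gene of 16 lists (vertical axis, number of genes in brackets); 1 point per gene, red if more than 2-fold higher, blue if more than 2-fold lower, with a black bar at the list median and dashed lines at 2-fold. Points are shifted vertically at random for display. Mesenchymal and fibroblast medians lie right of 1, the epithelial median at −0.69 and the core pluripotency median at −0.10.

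Genes of the naive state of pluripotency were mostly lower in the heterologous line. Of 15 naive genes, 13 lay below 0 and the median was −0.46, and Dppa3 and Pecam1 were beyond 2-fold (13.3% of the list, beside 0.647% over all genes). Dppa3 (Stella), which protects methylation marks in the early embryo, was at 8.97 in the homologous and 6.82 in the heterologous array (−2.15), against 7.02 in parental ESCs and 8.85 and 8.71 with co-injection. The heterologous line and parental ESCs thus formed the low pair for this gene. Pecam1, an adhesion molecule of ESCs and endothelium, was at 9.36 and 7.99 (−1.36), against 9.43, 9.02 and 9.20. Tbx3 was the highest naive gene, at 8.54 and 9.25 (0.72), far below its 11.58 in parental ESCs in both lines. Without the genes on chromosomes 6, 8 and 12 the naive median over the 11 others was −0.32. Of 18 primed genes, 3 were more than 2-fold lower (16.7%, beside 0.647% over all genes) and 1 higher (5.56%, beside 2.41% over all genes). Their median was −0.10. Otx2, a homeobox factor of the epiblast, was at 9.73 and 7.75 (−1.98), against 9.25, 9.60 and 9.30, so the heterologous array was the lowest. Cldn6 and Car14 (−1.11) were the other lower genes and Cdh2 the higher one, and 2 of these 4 are also junction or cadherin genes of the lists above.

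Secreted signals and their receptors showed a mixture in which the higher genes prevailed. Of 49 genes of the TGF-beta family and its regulators, 10 were more than 2-fold higher (20.4%, beside 2.41% over all genes). None was lower, and the median was 0.20. Among ligands, Tgfb3 was at 7.998 in the homologous and 10.39 in the heterologous array (2.39), against 7.34 in parental ESCs and 6.94 and 6.85 with co-injection. Inhba, the subunit of activin A, was at 9.24 and 11.63 (2.39), against 9.58, 7.49 and 7.56. For both ligands the heterologous array was the highest and the co-injection arrays were the lowest. Tgfb2 (1.89) and Bmp2 (1.36) were the other ligands. The receptor gene Tgfbr2 (1.21) was higher, and so were Lrrc32 (2.06), which holds latent TGF-beta at the cell surface, and the antagonists Grem1 (1.94), which blocks BMPs, and Fst (1.90), which blocks activin. Bmp4 (−0.57), Bmp7 (−0.54) and Acvr1b (−0.35) were at the other end of the family.

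Of 53 Wnt pathway genes, 4 were more than 2-fold higher (7.55%, beside 2.41% over all genes) and none lower, with a median near 0 (0.06). Wnt5a, a ligand of non-canonical signalling, was at 7.57 in the homologous and 10.34 in the heterologous array (2.78, or 6.85-fold), against 7.42 in parental ESCs and 6.96 and 6.73 with co-injection. Wnt8a, a ligand of the primitive streak, was at 7.36 and 9.62 (2.26), against 7.32, 8.05 and 8.03. Both ligands were highest in the heterologous array by more than 2-fold over each of the others. The other higher genes, Dkk2 (1.34) and Frzb (1.09), encode Wnt antagonists, while the co-receptor gene Lrp6 was at −0.74. Of 37 genes of the FGF pathway, Fgf7 (1.84) and Fgf10 (1.23), a pair of mesenchymal ligands that act on epithelium, were higher (5.41%, beside 2.41% over all genes) and none was lower, with 17 genes above 0, 19 below and a median of −0.03.

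Of 40 growth factors, growth factor receptors and IGF genes, 10 were more than 2-fold higher and 1 lower (median 0.29). These shares of 25% and 2.5% stand beside 2.41% and 0.647% over all genes. The higher ones were the binding proteins Igfbp5 (1.66), Igfbp7 (1.65) and Igfbp3 (1.43), the ligands Igf1 (1.60) and Igf2 (1.34), Ereg (1.65) and Hbegf (1.12), which activate the EGF receptor, and the receptors Egfr (1.36), Pdgfrb and Axl. The neuregulin receptor gene Erbb3 was the lower one, at 9.47 in the homologous and 8.20 in the heterologous array (−1.27). Guidance genes gave 6 of 59 higher (10.2%, beside 2.41% over all genes), with a median of 0.12. Among them were Nrp1 (2.43), the receptor of class 3 semaphorins, and its ligands Sema3c (2.17) and Sema3a (2.004), besides Slit3 (1.34) and Slit2 (1.13). Annexins, which bind membranes in the presence of calcium, and S100 proteins gave 7 of 28 higher (25%, beside 2.41% over all genes). Anxa1 (2.27) and Anxa3 (1.98) led this list, and its median was 0.12. Osmr, the receptor gene of the LIF relative oncostatin M, was at 8.60 and 10.21 (1.61). It was the only one of 17 LIF and STAT3 genes beyond 2-fold (5.88%, beside 2.41% over all genes), and the list median was 0.06.

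**Figure D3:**
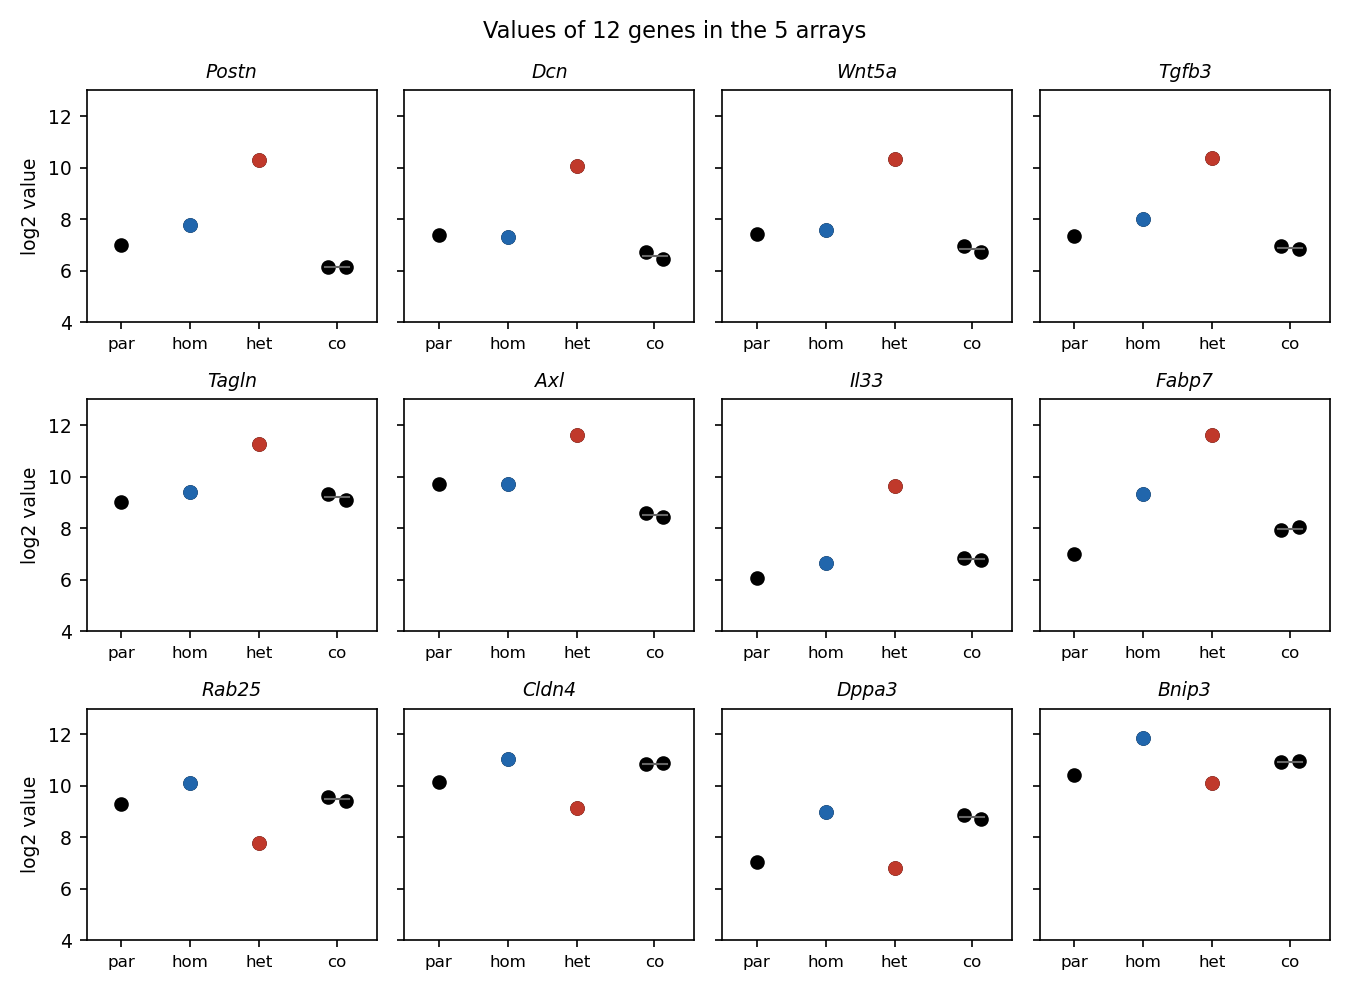
Log2 values (vertical axis) of 12 genes in parental ESCs (par), the homologous array (hom, blue), the heterologous array (het, red) and the co-injection batches (co, with a line at their mean); 1 point per array. The heterologous array is the highest for the upper 8 genes, from Postn to Fabp7, and the lowest for the bottom 4, Rab25, Cldn4, Dppa3 and Bnip3.

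The recipients differed in genotype, so the genes by which immune cells see a graft are of interest. Of 33 genes listed for MHC class I and its antigen presentation, 24 could be compared. None of the 24 was beyond 2-fold, and their median was 0.01. B2m, the light chain of class I, had the highest difference, with 11.15 in the homologous and 11.99 in the heterologous array (0.85) against 9.84 in parental ESCs and 10.57 and 10.64 with co-injection. Interferon-response genes had 1 of 30 higher (Irf2, 1.15), 1 lower (Bst2, −1.16) and a median of 0.00, and these shares of 3.33% each stand beside 2.41% and 0.647% over all genes. Ligands of natural killer cells and immune regulators gave 3 of 22 higher (13.6%, beside 2.41% over all genes) and 1 lower (4.55%, beside 0.647%). Their median was 0.26, and 10 of the 22 lay above the median level of the array. Raet1d (1.13) and H60b (1.10), which encode ligands of the killer cell receptor NKG2D, and Cd80 (1.71), a costimulatory molecule of T cells, were higher, and Lgals9, which dampens T cells, was lower at −1.17. Raet1 and H60 genes are families of close copies, and probe sets may not keep their members apart.

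Chemokines and inflammatory mediators had 7 of 32 genes more than 2-fold higher (21.9%, beside 2.41% over all genes) and none lower. The list median was 0.22, but −0.034 with the co-injection mean in place of the homologous array. Il33, an alarmin released by damaged cells, was at 6.66 in the homologous and 9.64 in the heterologous array, against 6.07 in parental ESCs and 6.84 and 6.78 with co-injection. Ptgs2 was at 9.32 and 11.85 (2.52), against 10.36, 8.56 and 8.51. The monocyte attractants Ccl2 (2.02) and Ccl7 (1.86), Csf1 (1.51), the growth factor of macrophages, Il11 (1.06) and Ptges (1.03) were the others. All 7 genes were highest in the heterologous array. Of 18 macrophage genes, 1 was higher (5.56%, beside 2.41% over all genes), namely Lyz2, at 5.73 and 7.02 (1.28). The mean of the list was 6.58 in the homologous and 6.89 in the heterologous array. It was 6.89 in parental ESCs and 6.73 and 6.84 with co-injection, so the homologous array was the lowest. Only 2 of the 18 genes lay above the median level of the array. The pan-leukocyte gene Ptprc was at 5.33 and 5.28, and none of 22 T, NK and B cell genes, 15 endothelial, 7 erythroid, 10 adipocyte, 13 cartilage and bone or 9 keratinocyte genes passed 2-fold.

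Hox genes, whose order on the chromosome follows the body axis, were all on one side. Each of 37 Hox genes had a difference above 0, and the median was 0.46, although only 8 of the 37 lay above the median level of the array. More than 2-fold higher were 10 of them (27%, beside 2.41% over all genes). Paralogues 1 to 8, the anterior and central ones, had 9 of 21 beyond 2-fold and a median of 0.97, and paralogues 9 to 13, the posterior ones, 1 of 16 and 0.35. Hoxa5 was at 7.002 in the homologous and 9.44 in the heterologous array (2.44), against 6.74 in parental ESCs and 6.997 and 7.07 with co-injection. Hoxb1 was at 8.27 and 10.06 (1.79), against 8.17, 8.60 and 8.64. Hoxc8 was at 8.52 and 10.17 (1.65), against 8.18, 7.36 and 7.47. The heterologous array stood above the other 4 in each case. Anterior Hoxa, Hoxb and Hoxc genes had medians of 0.98, 1.05 and 1.34, whereas the 4 anterior Hoxd genes had a median of 0.13 and none beyond 2-fold. Genes of a cluster are neighbours and not independent observations.

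Of 20 neural progenitor genes, 16 lay above 0, 4 were more than 2-fold higher (20%, beside 2.41% over all genes) and none lower (median 0.14), with Fabp7, a fatty acid binding protein of radial glia, at 9.32 in the homologous and 11.64 in the heterologous array (2.32), against 6.99 in parental ESCs and 7.92 and 8.05 with co-injection. Nes (nestin) was at 9.15 and 10.39 (1.24), and Zic1 (1.11) and Rfx4 (1.01) were the others. In endoderm, Cubn (1.99) and Dab2 (1.35), which work together in endocytosis, were 2 of 22 (9.09%, beside 2.41% over all genes). The probe sets of Dab2 disagreed, however, and their mean gave 0.61. Wnt8a was the only one of 24 mesoderm and primitive streak genes beyond 2-fold (4.17%, beside 2.41% over all genes). In trophectoderm, Rhox9 (−1.43) and Tfap2c (−1.30) were the 2 lower genes of 13 (15.4%, beside 0.647% over all genes). Of the genes used to mark germ layers, Afp was at 6.62 and 6.58, Kdr at 6.85 and 6.64 and Pax6 at 8.15 and 8.95.

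Among 30 germ line and meiosis genes none was higher and 4 were lower (13.3%, beside 0.647% over all genes), with a list median of −0.02. The lower ones were Tdrd12, Prdm1 (−1.79), which specifies primordial germ cells, Tex14 (−1.40) and Stag3 (−1.08). Of 9 genes of the 2-cell stage, Tdpoz3 (1.45), Usp17la (1.37) and Zfp352 (1.18) were higher and Dppa3 lower. These are 33.3% and 11.1% of the list, beside 2.41% and 0.647% over all genes. Tdpoz3 was at 7.26 in parental ESCs, 5.30 in the homologous and 6.75 in the heterologous array, and at 5.12 and 4.89 in the co-injection arrays, so both high values were outside the homologous line. Only 2 of these 9 genes were above the median level of the array, and over those 2 the median was −1.05.

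Genes of hypoxia and glycolysis gave 5 of 27 lower (18.5%, beside 0.647% over all genes) and none higher, with a median of −0.38. Bnip3, a mitophagy receptor induced by low oxygen, was at 11.84 in the homologous and 10.11 in the heterologous array (−1.73), against 10.43 in parental ESCs and 10.91 and 10.95 with co-injection. The glycolytic genes Pfkp (−1.72) and Aldoc (−1.58), Ddit4 (−1.25) and Ndrg1 (−1.21) were the others. Here the homologous array was the one that stood apart: its list median was 0.44 above parental ESCs, against 0.07 for the heterologous array. The co-injection mean was below the homologous array by a median of −0.38. The single co-injection arrays had medians of −0.40 and −0.38 (SD 0.011, n = 2). These comparisons share arrays and are given side by side. Cholesterol synthesis showed a smaller shift with 0 of 19 beyond 2-fold (median −0.29). Cell cycle and spindle genes had 2 of 37 higher (5.41%, beside 2.41% over all genes) and 26 below 0. The higher ones were the cyclin gene Ccnd2 (1.82) and the inhibitor gene Cdkn2b (1.13), and the list median was −0.12. None of 10 housekeeping and 19 ribosomal protein genes passed 2-fold, and Actb was at 13.55 and 13.59.

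MicroRNA genes were measured through probe sets on their precursors, so the values are not levels of mature miRNAs. Of 296 such genes 19 (6.42%, beside 2.41% over all genes) were more than 2-fold higher and 1, Mir297b (−1.09), lower. Their median was 0.0067. Of the higher ones, 5 were the members of the Mir302-Mir367 cluster, which is expressed in ESCs and epiblast and favours the cell cycle of pluripotent cells, and 12 belonged to the imprinted Dlk1-Dio3 region on chromosome 12. The Mir302-Mir367 hairpins lie within 1 kilobase on chromosome 3 (chr3:127545228-127545301 for Mir302b to chr3:127545733-127545807 for Mir367, GRCm38.p6, plus strand). The RefSeq mature sequences are printed with the seed, bases 2 to 8, in capitals, because the seed sets the targets of a miRNA and groups the members of the cluster.
miR-302b-3p: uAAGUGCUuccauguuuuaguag
miR-302d-3p: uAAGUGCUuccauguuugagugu
miR-302c-3p: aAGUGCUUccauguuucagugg
miR-302b-5p: aCUUUAACaugggaaugcuuucu
miR-302c-5p: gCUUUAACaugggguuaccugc
miR-302d-5p: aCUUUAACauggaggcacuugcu
miR-302a-5p: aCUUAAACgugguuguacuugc
miR-367-3p: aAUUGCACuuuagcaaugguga
The 3p arms of miR-302b and miR-302d share the seed AAGUGCU, that of miR-302c reads AGUGCUU in the annotated frame, and 3 of the 5p arms share CUUUAAC.

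Mir302b was at 4.27 in the homologous and 7.01 in the heterologous array (2.75, or 6.71-fold), against 4.22 in parental ESCs and 4.03 and 4.03 with co-injection. Mir302d was at 5.08 and 7.27 (2.20), against 5.26, 5.07 and 5.01. Mir302c was at 5.03 and 6.996 (1.97), against 5.03, 5.02 and 4.95. Mir302a (4.32 and 6.28) and Mir367 (3.87 and 5.49) followed the same order. In all 5 genes the 4 other arrays lay close together and the heterologous array alone was high. The hairpins lie inside the interval of the protein-coding gene Larp7, and Larp7 itself was at 10.80 in the homologous and 10.90 in the heterologous array. All 5 precursor values stayed below the median level of the array, 7.49. Genes of other miRNAs with the miR-367-3p seed AUUGCAC, namely Mir25, Mir32, Mir363, Mir92-2 and Mir92b, differed by −0.15 to 0.04.

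Of 39 miRNA genes of the Dlk1-Dio3 region, 12 were more than 2-fold higher, none lower, and the median was 0.80. Over all genes 2.41% were higher, and over all miRNA genes 6.42%. The 12 genes lie in the last of 5 segments of chromosome 12. The 84 genes of this segment above the median level of the array had a median of 0.65, and 96.4% were above 0. Whether this regional shift has a part in the miRNA differences was not tested. Mature sequences of the 3 genes with the largest differences are shown, again with the seed in capitals.
miR-154-5p: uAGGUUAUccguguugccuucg
miR-369-3p: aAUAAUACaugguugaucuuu
miR-379-5p: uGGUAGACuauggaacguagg
Mir154 was at 6.89 in the homologous and 8.30 in the heterologous array (1.41), against 5.85 in parental ESCs and 6.01 and 5.62 with co-injection. Mir369 was at 7.04 and 8.45 (1.41), against 6.06, 6.59 and 6.13. Mir379 was at 5.65 and 6.91 (1.26), against 4.54, 4.36 and 4.31. Unlike the Mir302-Mir367 genes, these were also higher in the homologous array than in the remaining 3. Mir380 was the gene with the co-injection arrays more than 2-fold apart, at 7.48 and 6.47. The neighbouring imprinted gene Dlk1, a Notch-like membrane protein of progenitors, was at 10.12 and 11.59 (1.47). The remaining 252 miRNA genes had 2 higher (Mir125b-1 at 1.07 and Mir145a at 1.06), 1 lower and a median of 0.

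**Figure D4:**
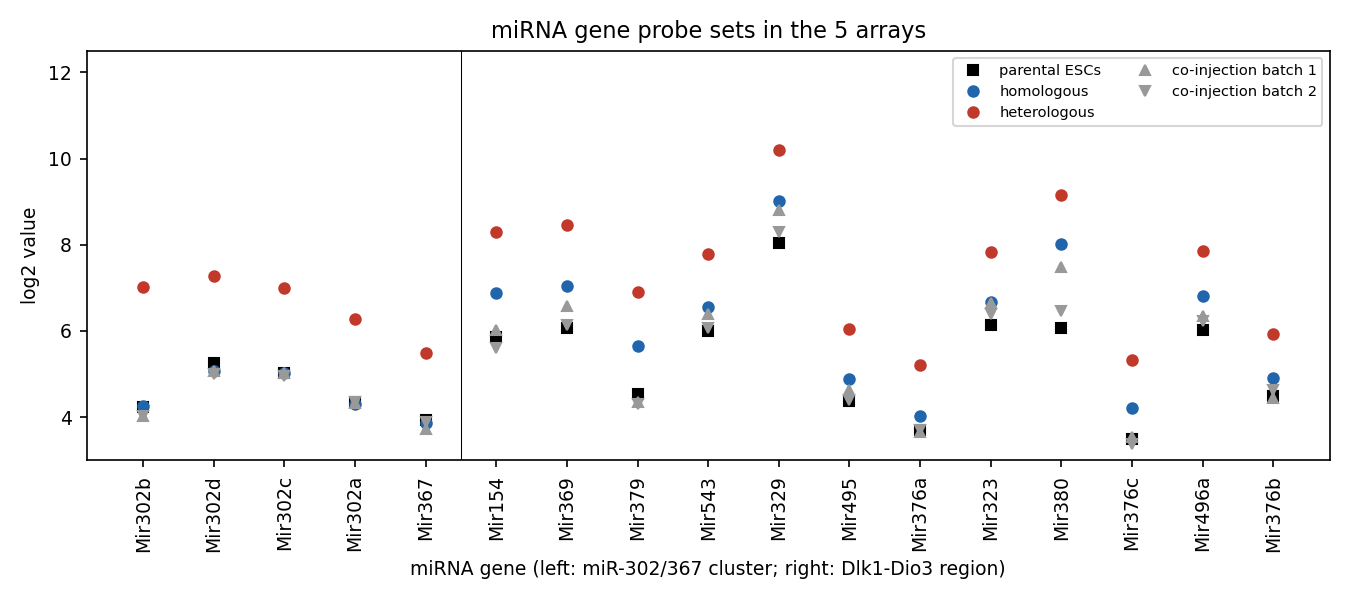
Log2 values (vertical axis) of the probe sets of 5 miRNA genes of the Mir302-Mir367 cluster (left of the line) and the 12 genes of the Dlk1-Dio3 region beyond 2-fold (right) in the 5 arrays; 1 marker per array. In the left group the heterologous array (red) is alone above the other 4, and in the right group the homologous array (blue) lies between the heterologous and the other 3 arrays for all 12 genes.

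The median difference was not the same over the whole genome. Among 11575 genes above the median level on 20 chromosomes, 45.5% had a difference above 0. The chromosome medians lay near 0 except on chromosomes 12 (0.17), 8 (−0.20) and 6 (−0.09). Shares beyond 2-fold did not follow these medians throughout. Of these genes 6.89% were more than 2-fold higher on chromosome 12, 5.85% on chromosome 3 and 5.32% on chromosome 18. On chromosome 8, 1.68% were higher and 1.53% lower. Each chromosome was divided into 5 segments with equal numbers of genes, in the gene order of GRCm38.p6. On chromosome 12 the fourth segment, from Nek9 to Slc25a29, had a median of 0.51 with 88.1% of its 84 genes above 0, and the last segment, from Mir345 to Tmem196, had 0.65 with 96.4% above 0, whereas the first segment had −0.05. On chromosome 8 all segments lay between −0.23 and −0.17, with 20.7% of 653 genes above 0. On chromosome 6 the fourth segment, from Foxp1 to Lpcat3, had −0.28 and the last −0.26. The 85 segments of the other chromosomes lay between −0.09 and 0.07, and the co-injection arrays differed by segment medians of −0.06 to 0.02.

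The arrays that set these shifts differed between chromosomes. For the end of chromosome 12 the heterologous array was above parental ESCs by a median of 0.54 in the fourth and 0.87 in the last segment, and the homologous array was at −0.04 and 0.13. For chromosome 8 the homologous array was above parental ESCs by 0.26 and the heterologous array by 0.04, and the co-injection arrays were above it in every segment, by 0.17 to 0.27. For the fourth segment of chromosome 6 the homologous array was at 0.19, the heterologous at −0.08 and the co-injection arrays at 0.21 and 0.22. At the end of chromosome 12 the heterologous line was thus apart from the other arrays, whereas on chromosome 8 and at the end of chromosome 6 the homologous and co-injection lines lay above parental ESCs and the heterologous line lay close to them. Of 270 genes from Nek9 to the end of chromosome 12, dim ones included, 40 were more than 2-fold higher and none lower. Over all genes of the array 2.41% were higher. Among the 40 were 12 miRNA genes. Several genes with large differences lie there, among them Itgb8, Gm5662, Tgfb3, Fbln5 (1.87) and Dlk1, and by position, chosen after their values were seen, also Sp4 (2.21), Cdca7l (2.13), Flrt2 (1.99) and Akt1 (1.08). Without chromosomes 6, 8 and 12 there were 386 higher and 109 lower genes. Whether the shift of the region has a part in the differences of its genes was not tested.

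**Figure D5:**
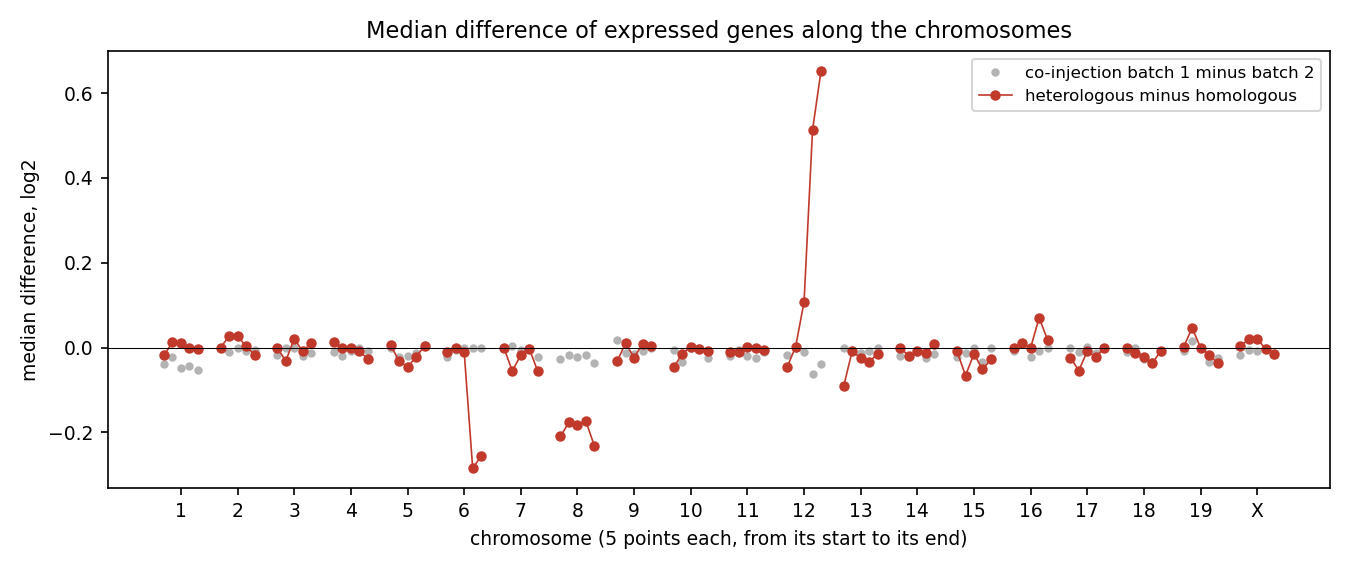
Median heterologous minus homologous difference (red, log2, vertical axis) of the genes above the median level in each of 5 segments of 20 chromosomes (horizontal axis), with the median difference of the co-injection arrays (grey). The last segments of chromosome 12 reach 0.51 and 0.65, chromosome 8 lies between −0.23 and −0.17 and the end of chromosome 6 at −0.28 and −0.26.

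On the X chromosome the median difference between the lines was 0.0049, and both were below parental ESCs by similar medians (−0.44 for the homologous and −0.47 for the heterologous array). Xist, the RNA that coats the inactive X chromosome, was at 6.79 in the homologous and 8.41 in the heterologous array (1.63), against 6.80 in parental ESCs and 6.34 and 6.29 with co-injection, so it was high in the heterologous array alone. Of 8 Y-linked genes none was beyond 2-fold, and they did not share a direction, with Uty at 8.75 and 7.78 and Eif2s3y at 7.88 and 8.54. Imprinted genes gave 3 of 27 higher, Dlk1, Plagl1 (1.40) and Igf2 (11.1%, beside 2.41% over all genes), and none lower. The list median was 0.15, but −0.031 without chromosomes 6, 8 and 12. Plagl1 was at 10.65 in parental ESCs, 9.07 in the homologous and 10.46 in the heterologous array, and at 9.56 and 9.27 with co-injection, so the heterologous line was near parental ESCs and the other 3 lines were lower.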

How the data were processed

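RNA of 5 cell populations was measured on Affymetrix GeneChip Mouse Gene 1.0 ST arrays, 1 array per population. The authors read the scans with GCOS, ran RMA and quantile normalization, and deposited log2 values of 35556 probe sets per array. Software versions and the genome build were not given in the sources used here. Array medians were 7.48 to 7.54, and the values were used without further normalization. Quantile normalization forces 1 distribution on all arrays, so a shift of all genes would not be seen. The number of arrays limits precision.

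The platform annotation gave exactly 1 gene symbol for 21789 probe sets, several for 1621 and none for 12146; only the first were used. A gene was counted beyond 2-fold, the fold rule of the study, with no test. A gene was called above the median level when its mean over the 5 arrays exceeded the median of all values (7.49). Chromosomes and gene order came from RefSeq GRCm38.p6 for 19855 genes; positions are printed only for sequences of RefSeq tables, which held 271 of 296 miRNA genes and promoters of 15614 genes.

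Members and the 48 gene lists were chosen with earlier results of these data known; genes lacking a single-symbol probe set were not analysed here. Lists are described by counts and medians. Genes were named by rule: genes the study names, the 20 largest differences each way, per list the 3 highest, 3 lowest and all beyond 2-fold, the 5 nearest to each side of 2-fold, and the 10 highest levels among genes beyond 2-fold. Other named genes (members of miRNA clusters, Larp7, miRNA genes with the miR-367 seed, and genes chosen for their place on chromosome 12) were picked with their values in view.

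The alternatives tried were fold thresholds of 1.5 and 3, all probe sets, leaving out dim genes, cyclic loess, centring, other choices of probe set, the co-injection mean in place of the homologous array, leaving out each co-injection array and, added later, leaving out 3 chromosomes. The fold rule was tested on simulated data. Python 3.11.15, numpy 2.4.6, pandas 2.3.3, matplotlib 3.10.9, R 4.3.3 and limma 3.58.1 (cyclic loess only) were used.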

Additional observations from a re-analysis of the deposited data

Results flagged for a closer look

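Probe sets outside the comparison of named genes also differed more than 2-fold between the heterologous and homologous arrays. Of 1621 probe sets with several gene symbols, 70 (4.32%) were beyond 2-fold, 32 higher and 38 lower, against 2 (0.123%) between the co-injection arrays. Of 5529 probe sets without a symbol that stand after the first named one in the table, 67 (1.21%) were beyond 2-fold, 52 higher and 15 lower, against 2 (0.0362%) between the co-injection arrays. Of 6617 probe sets before the first named one, 145 (2.19%) were beyond 2-fold, 98 higher and 47 lower, but there the co-injection arrays were also more than 2-fold apart at 98 (1.48%). No gene can be named for these probe sets.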

How the results depend on the processing

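The number of higher genes was 1115 at 1.5-fold and 157 at 3-fold, and that of lower genes 613 and 24. With all probe sets 237 were lower, and against the co-injection mean 72 genes were lower, 60 of them among the 129. The count of higher genes was between 335 (dim genes left out) and 703 (all probe sets) under the other alternatives, and that of lower genes between 109 and 129. Against the co-injection mean, list medians were 1.56 (fibroblast), 0.65 (contractile), −0.94 (epithelial) and −0.61 (naive), and the chemokine median turned to −0.034. Without dim genes they were 1.32 (fibroblast) and −0.80 (epithelial), while the medians of the 2-cell list (−1.05, 2 genes) and the X inactivation list (−0.57, 1 gene) reversed because few genes were left. Cyclic loess gave 1.20 (fibroblast) and 0.57 (contractile), and the mean of the probe sets of a gene gave 0.49 (contractile). Without chromosomes 6, 8 and 12, an alternative chosen after seeing the data, the naive median was −0.32 and the imprinted median −0.031. The cause of the other changes was not tested.

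Leaving out either co-injection array, the medians against the homologous array ranged from −0.41 to −0.38 (fibroblast), −0.11 to −0.07 (contractile), 0 to 0.07 (epithelial) and 0.046 to 0.23 (naive); the 0.046 is the value without batch 2. Of 202 named genes beyond 2-fold, 196 stayed so with cyclic loess, 200 after centring, 201 with the mean of a gene's probe sets (Dab2 did not) and 202 with the probe set that was brightest in the 2 arrays compared. Of the 610 genes 19 have several probe sets, and for 8 of these another probe set was not beyond 2-fold, in 2 cases with the opposite sign. No paired analysis was possible because each side has 1 array and the groups share fewer than 2 replicate numbers. Other background corrections and a block for the slide need scanner files, which were not used here, so neither was run.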
